A study of Mus musculus with 36 samples.

Results

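The genes described here encode the nuclear subunits of the mitochondrial respiratory chain and the ATP synthase. They were chosen by symbol: Ndufa, Ndufb, Ndufc, Ndufs and Ndufv for complex I, Sdha to Sdhd for complex II, Uqcr for complex III, Cox4 to Cox8 for complex IV and Atp5 for the ATP synthase, leaving out symbols marked as pseudogenes by "-ps". The rule found 96 of the 34197 genes in the count table: 39 of complex I, 4 of complex II, 8 of complex III, 20 of complex IV, 17 of the ATP synthase and 8 Ndufaf genes, which encode assembly factors of complex I and not subunits. Ndufa4 and Ndufa4l2 were counted with complex IV, where the Ndufa4 protein is known to sit. The limit on low counts left 87 of the 96 for testing.

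Polyadenylated RNA was measured in 36 libraries of duodenal organoids from male or virgin female C57BL/6 mice older than 8 weeks, with no genetic modification named. The organoids, 20 to 50 per library, sat in a microfluidic chip and received either DMSO or pulses of DAPT, an inhibitor of gamma-secretase and so of Notch receptor cleavage. Pulses came with a period of 90, 130 or 170 min for 24, 48 or 72 h, which gives 12 groups of 3 libraries. Dose and period were tied, since 1.38 µM DAPT went with pulses every 90 min, 2 µM with every 130 min and 2.6 µM, or a second concentration of 2 µM, with every 170 min. The organoids had been passaged 3 days before a 24 h experiment, 2 days before 48 h and 1 day before 72 h, so duration and time since passage cannot be told apart. The labels do not say whether DMSO was pulsed, and they name no separate cultures or animals for the replicates. The p-values therefore rest on a spread between libraries that may be technical.

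The respiratory chain passes electrons from NADH through complex I, or from succinate through complex II, to ubiquinone, complex III, cytochrome c, complex IV and oxygen. Complexes I, III and IV pump protons, and the ATP synthase (complex V) uses the gradient to make ATP. Most subunits are encoded in the nucleus and join a small set made from mitochondrial DNA. In the intestine, absorptive enterocytes and crypt stem cells are known for high mitochondrial activity. Many of these genes carry sites for nuclear respiratory factor 1 (NRF1) and for ETS factors such as GABP near their start.

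The promoter windows of RefSeq (GRCm38.p6, 250 bases before to 50 after the start) were available for 75 of the 96 genes. The NRF1 palindrome, GCGCA followed directly by TGCGC, lay in the windows of 7 of the 75 (9.33%), against 1.07% of 27025 genes with a window. The NRF1 hexamer TGCGCA, which can overlap the palindrome, lay in 19 of 75 (25.3%, all genes 8.79%). The ETS core CCGGAAG lay in 19 of 75 (25.3%, all genes 9.93%) and the CCAAT box in 34 of 75 (45.3%, all genes 41.1%). Both strands were searched. A match of letters is a description of the window and not a measured site. The 5 windows printed here show the palindrome in genes of complex IV (Cox6a1), the ATP synthase (Atp5k), complex I (Ndufa11) and complex I assembly (Ndufaf5), and a hexamer alone in Cox5b, one of the genes with the steepest fall with library total among those tested. The windows lie at chr5:115348909-115349208, minus strand, for Cox6a1, chr5:108434350-108434649, minus strand, for Atp5k, chr17:56717512-56717811, plus strand, for Ndufa11, chr1:36691237-36691536, plus strand, for Cox5b, and chr2:140170396-140170695, plus strand, for Ndufaf5. Each is written 5′ to 3′ on the strand of its gene, with NRF1 palindromes, NRF1 hexamers and ETS cores in capitals.

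Cox6a1: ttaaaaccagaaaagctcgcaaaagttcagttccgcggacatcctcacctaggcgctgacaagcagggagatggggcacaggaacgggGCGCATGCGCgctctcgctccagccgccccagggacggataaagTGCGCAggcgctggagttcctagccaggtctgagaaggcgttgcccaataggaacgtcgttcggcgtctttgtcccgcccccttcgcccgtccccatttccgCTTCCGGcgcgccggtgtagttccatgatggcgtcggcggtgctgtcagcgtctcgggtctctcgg

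Atp5k: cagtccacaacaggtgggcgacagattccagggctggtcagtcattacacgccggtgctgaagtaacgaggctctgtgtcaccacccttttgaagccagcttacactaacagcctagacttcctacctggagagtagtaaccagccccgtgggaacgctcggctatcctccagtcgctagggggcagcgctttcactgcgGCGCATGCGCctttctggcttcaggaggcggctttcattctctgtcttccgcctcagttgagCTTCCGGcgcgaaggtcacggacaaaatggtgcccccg

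Ndufa11: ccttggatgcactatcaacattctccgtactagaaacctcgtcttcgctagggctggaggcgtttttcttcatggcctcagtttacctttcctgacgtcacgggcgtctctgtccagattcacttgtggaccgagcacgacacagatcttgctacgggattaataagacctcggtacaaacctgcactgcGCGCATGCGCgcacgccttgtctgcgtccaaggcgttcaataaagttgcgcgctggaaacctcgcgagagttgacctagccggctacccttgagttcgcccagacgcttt

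Cox5b: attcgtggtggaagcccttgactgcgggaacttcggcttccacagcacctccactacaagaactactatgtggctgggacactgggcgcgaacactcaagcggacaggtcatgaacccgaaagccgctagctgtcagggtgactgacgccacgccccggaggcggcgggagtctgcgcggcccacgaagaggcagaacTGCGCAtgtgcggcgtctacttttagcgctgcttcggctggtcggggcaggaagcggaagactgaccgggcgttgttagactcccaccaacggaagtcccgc

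Ndufaf5: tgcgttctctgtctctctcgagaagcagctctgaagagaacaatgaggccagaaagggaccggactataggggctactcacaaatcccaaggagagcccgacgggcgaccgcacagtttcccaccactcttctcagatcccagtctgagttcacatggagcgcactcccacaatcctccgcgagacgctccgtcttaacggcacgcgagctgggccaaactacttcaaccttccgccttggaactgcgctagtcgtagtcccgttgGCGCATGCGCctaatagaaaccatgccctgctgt

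Library totals ran from 482741 to 1447330 UMI counts with a median of 958749. The lowest total was DMSO at 24 h, replicate 1, and the next lowest 130 min at 72 h, replicate 1 (610977). Mean totals were 859263 ± 211770 (SD, n = 9) in DMSO, 1058607 ± 200370 at 90 min, 855825 ± 150659 at 130 min and 1093666 ± 201182 at 170 min, so the 90 and 170 min libraries were on average deeper than the other 2 treatments. Markers of other cell types were near 0: the summed level never passed 5.25 CPM (counts per 1000000 of the library) for 6 fibroblast genes, 8.89 for 5 immune genes, 4.94 for 4 endothelial genes or 5.89 for 5 muscle genes, and all of these genes fell below the limit for testing. The 6 general epithelial markers summed to 1579 to 2422 CPM.

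Together the 96 genes took between 1.70% and 2.28% of all counts in a library, with a mean of 1.89% ± 0.123 (SD, n = 36). In these bulk libraries, fewer cells of a type and less RNA per cell cannot be told apart. Complex I genes summed to 0.668% ± 0.0441, the ATP synthase to 0.446% ± 0.0337, complex IV to 0.42% ± 0.0274, complex III to 0.203% ± 0.0152 and complex II to 0.0796% ± 0.00827. The 8 assembly factors summed to 0.0726% ± 0.00438. For comparison, transcripts of mitochondrial DNA took 0.779% ± 0.0945 and cytosolic ribosomal protein genes 1.61% ± 0.0993. By treatment, the share ran from 1.81% to 2.28% in DMSO (median 1.95%), from 1.75% to 1.95% at 90 min (1.84%), from 1.70% to 2.19% at 130 min (1.91%) and from 1.73% to 2.04% at 170 min (1.82%), so all 4 treatments overlapped. The 2 libraries highest for the 96 genes were DMSO at 24 h, replicate 1 (2.28%), and 130 min at 24 h, replicate 3 (2.19%).

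**Figure D1:**
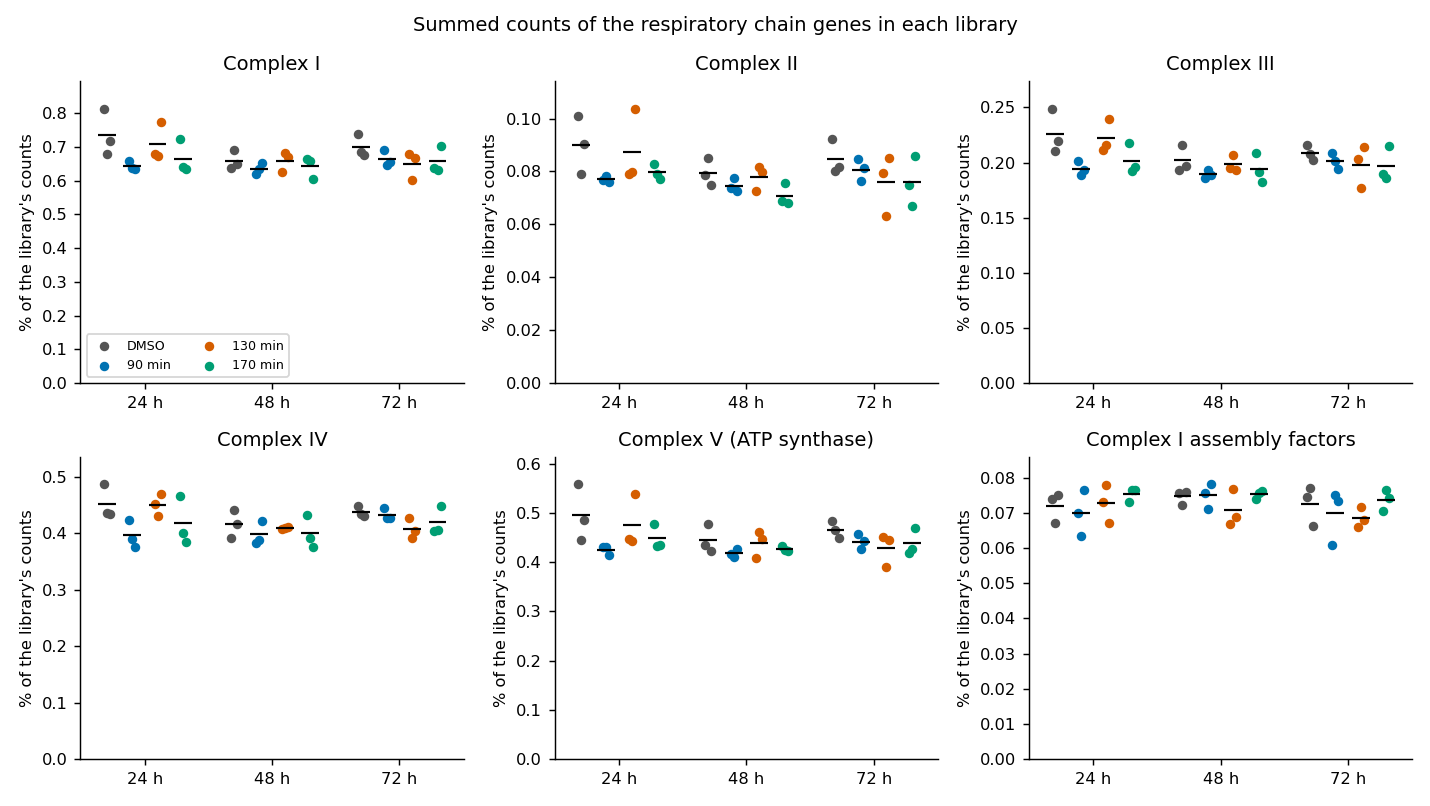
Percent of each library's counts that fell on the genes of each complex, by duration (x axis) and treatment (colour); 1 point is 1 library and the bar is the group's mean (n = 3). At 24 h, 1 DMSO library (2.28% for all 96 genes) and 1 library of 130 min (2.19%) lie above the rest for complexes I, III, IV and V.

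Levels within a complex spanned a wide range. Each count is 1 tagged molecule, so CPM was not divided by transcript length. In complex I, Ndufc2, an accessory subunit of the membrane arm, had the highest mean level (460 CPM) and Ndufa11b, named for its likeness to Ndufa11, the lowest among tested genes (9.27 CPM). In complex III, Uqcrq was highest (562 CPM) and Uqcr11 lowest (109.6 CPM), both small accessory subunits. In complex IV, Cox8a was highest (588 CPM) and Cox7a1 lowest (38.5 CPM). In the ATP synthase, Atp5g3 was highest (674 CPM) and Atp5g2 lowest (8.16 CPM); both encode the same ring subunit c. Among the assembly factors, Ndufaf4 was highest (190 CPM) and Ndufaf5 lowest (34 CPM).

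Complex II has 4 subunits, all nuclear. Sdha, the flavoprotein that oxidises succinate, averaged 306 CPM and varied by 15.7% (coefficient of variation, n = 36). Sdhb, which holds the iron-sulfur clusters, averaged 186 CPM, Sdhc, a membrane anchor, 225 CPM, and Sdhd, the other anchor, 90.4 CPM. In DMSO, Sdhb ran from 156 to 291 CPM with a median of 196. It ran from 156 to 206 CPM (median 176) at 90 min, from 132 to 283 (median 197) at 130 min and from 142 to 195 (median 167) at 170 min. All 4 treatments overlapped, and the highest value was again DMSO at 24 h, replicate 1.

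Where a subunit has paralogues, 1 of them nearly always held the counts. Cox4i1 had 13489 of the 13490 counts of the Cox4i genes, and Cox4i2 had 1. Cox6a1 held 99.6% and Cox6b1 99.9% of their sets. Cox6a2, known as the heart and muscle form, had 59 counts in 18 libraries, and Cox6b2, known as the testis form, 20 counts in 16 libraries. Cox8a had 20066 of 20067 counts against 1 for Cox8b, Cox7b 12646 of 12649 against 3 for Cox7b2, and Ndufa4 99.9% against 24 counts for Ndufa4l2, a hypoxia-linked relative. The remaining genes below the limit for testing were Cox6c2 with 80 counts, Ndufs6b with 73 and Ndufb4c with 13, summed over all libraries.

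The subunit c genes and the Cox7a genes were shared between paralogues. Atp5g3 held 82.6% of the subunit c counts (95% Wilson interval 82.1% to 83%), Atp5g1 16.4% and Atp5g2 1.02%. Across libraries the Atp5g3 share ran from 79.7% to 86.7%. Of the short sequence words at the 3′ end of the transcripts, 39.9% for Atp5g1 also occur in 11 other genes. For Atp5g2, 51.4% occur in 3 other genes, and for Atp5g3 0% do. The counts of Atp5g1 and Atp5g2 are therefore uncertain, and so are the shares of all subunit c genes. The interval does not cover this. In the Cox7a set, Cox7a2 held 52.1%, Cox7a2l, known for its part in supercomplex assembly, 40.8%, and Cox7a1, the heart and muscle form, 7.11%. These intervals and shares cover counting error only, since molecules of 1 library are not independent samples.

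Cox7a1 was the tested gene with the widest relative spread in complex IV, with a coefficient of variation of 54.7% against 11.5% for Cox7a2. Its share of the Cox7a counts ran from 0.998% to 13.7% over the 36 libraries. At 72 h, DMSO libraries measured 32.2, 38.2 and 77.2 CPM and 130 min libraries 28.2, 6.78 and 11 CPM. The 130 min libraries all lay below the DMSO libraries. The log2 difference was -1.83 ± 0.66 (SE, n = 3), with an adjusted p of 0.353 in edgeR's quasi-likelihood test. Within DMSO at 48 h alone, Cox7a1 ran from 4.76 to 43.4 CPM, so single libraries of a group differed several-fold.

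**Figure D2:**
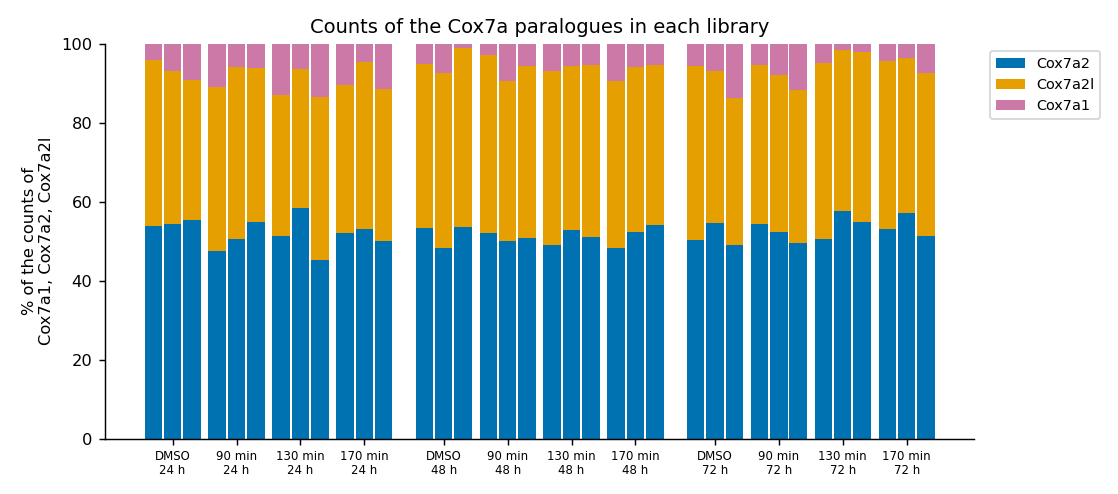
Percent of the summed counts of Cox7a1, Cox7a2 and Cox7a2l taken by each gene (y axis), 1 bar per library in group order (x axis). Cox7a1 takes 0.998% to 13.7%, with overlapping ranges in all treatments, while Cox7a2 stays between 45.2% and 58.5%.

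Each period was set against DMSO with the durations weighted equally, to ask whether pulses changed these genes. After 90 min pulses, 80 of the 87 tested genes had lower values than in DMSO, with a median log2 change of -0.14 against 0.02 over all 11462 genes tested. None of the 87 passed an adjusted p of 0.05 (edgeR; 0% of all genes did), and DESeq2 called 0 as well. At an unadjusted p below 0.05, 36 of the 87 (35 lower, 1 higher) passed, against 7.92% of all genes. In complex V 13 of 17 were among them, in complex I 13 of 37, in complex III 4 of 8, in complex IV 4 of 13, in complex II 2 of 4, and of the assembly factors 0 of 8. Without DMSO at 24 h, replicate 1, the 36 became 16 and the median -0.11. They became 20 without DMSO at 72 h, replicate 1, 21 without DMSO at 48 h, replicate 2, and 23 without 90 min at 24 h, replicate 3. Without DMSO at 24 h, replicate 2, they rose to 48.

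Ndufs4, an accessory subunit of complex I, had the smallest p among the lower genes. At 24 h its DMSO libraries measured 289, 212 and 217 CPM and its 90 min libraries 178, 188 and 161 CPM. All 3 DMSO values lay above the 90 min values. Over all durations the log2 change of Ndufs4 was -0.22 ± 0.07 (SE) with an edgeR adjusted p of 0.627, and at 24 h alone -0.43 ± 0.12 with an adjusted p of 0.458. Uqcrb, a small subunit of complex III, measured 284, 201 and 193 CPM in DMSO at 24 h and 161, 172 and 171 CPM at 90 min. Its averaged change was -0.23 ± 0.08 (adjusted p 0.627). At 48 h Uqcrb measured 171, 185 and 184 CPM in DMSO and 168, 167 and 150 CPM at 90 min, again without overlap but closer together. Of the 3′ words of Uqcrb, 40.7% also occur in 4 other genes, so its counts are uncertain here and in the comparisons below.

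Atp5l, subunit g of the ATP synthase, went the other way. In DMSO it ran from 5.86 to 20.1 CPM with a median of 13.9, and at 90 min from 14.4 to 25.1 CPM with a median of 21.7. At each duration all 3 values at 90 min lay above all 3 DMSO values. The averaged log2 change of Atp5l was 0.68 ± 0.18 (edgeR adjusted p 0.571). In the mouse transcripts of GENCODE vM21, 78.6% of the 50-base words at the 3′ end of Atp5l also occur in 13 other genes, among them its pseudogenes, so its counts are uncertain.

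After 130 min pulses the group of genes lay closer to DMSO. The median log2 change was -0.05, with 67 of 87 lower, 0 passing (0% of all genes) and 3 at an unadjusted p below 0.05 against 5.49% of all genes. Those 3 were Atp5l, with a log2 change of 0.54 ± 0.19, Ndufs3 (-0.26 ± 0.10) and Ndufs8 (-0.25 ± 0.10), the latter pair being core subunits of the hydrophilic arm of complex I. Their edgeR adjusted p-values were 0.735, 0.824 and 0.837. For Ndufs3, 64.7% of the 3′ words occur in other genes as well. Leaving out all libraries of replicate 1 turned the median to 0.02, and without 130 min at 72 h, replicate 2, alone it was -0.0043.

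After 170 min pulses the median log2 change was -0.13 and 77 of 87 genes were lower. None passed (0% of all genes), and 27 (26 lower) had an unadjusted p below 0.05, against 8.64% of all genes. Without DMSO at 24 h, replicate 1, that number was 11, and without 170 min at 24 h, replicate 1, it was 45. Leaving out any of 6 further DMSO or 170 min libraries gave 13 to 17. Ndufs4 and Uqcrb led again, with log2 changes of -0.22 ± 0.07 and -0.25 ± 0.08 (edgeR adjusted p 0.52 for each), followed by Ndufb7, an accessory subunit of complex I (-0.22 ± 0.07, adjusted p 0.528). Ndufb7 ran from 108 to 160 CPM in DMSO with a median of 136 and from 104 to 124 CPM at 170 min with a median of 115. These ranges overlapped. The 3 comparisons share the DMSO libraries, so their values are not independent of each other.

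Between periods, 75 of 87 genes were lower at 90 than at 130 min with a median of -0.09, and 72 of 87 were lower at 170 than at 130 min, also with a median of -0.09. The edgeR test called 0 of 87 in either (0% of all genes in each). At an unadjusted p below 0.05 there were 13 genes for 90 against 130 min (11.8% of all genes) and 8 for 170 against 130 min (12% of all genes). Without 130 min at 72 h, replicate 3, these became 4 and 2, and other single libraries raised them to as many as 32 (without 130 min at 72 h, replicate 2) and 23 (without 170 min at 24 h, replicate 1). With the same-numbered libraries of 130 and 170 min as pairs, 0 passed and 3 had an unadjusted p below 0.05. The smallest p-values were those of Ndufa4 (-0.20 ± 0.07), the Rieske protein gene Uqcrfs1 (-0.17 ± 0.06) and Ndufa11 (-0.18 ± 0.07) for 90 against 130 min, all with an edgeR adjusted p of 0.36. For 170 against 130 min they were those of Cox5b (-0.25 ± 0.09, adjusted p 0.297), Ndufa1 (-0.21 ± 0.08, 0.325) and Sdhc (-0.17 ± 0.07, 0.358).

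At 170 against 90 min, 54 of 87 genes were higher and 33 lower, with a median of 0.01, 0 called (0% of all genes) and 0 at an unadjusted p below 0.05 (1.3% of all genes). The 3 smallest p-values were those of Atp5l (-0.32 ± 0.17), Ndufs3 (0.15 ± 0.10) and the assembly factor gene Ndufaf6 (0.12 ± 0.08), each with an adjusted p of 1 in edgeR. Leaving out single libraries gave between 21 and 45 lower genes, and the median turned below 0 (at most to -0.0043) without 170 min at 24 h, replicate 1, at 48 h, replicate 1, or at 72 h, replicate 3.

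Single durations were compared next. At 24 h the median was -0.29 for 90 min, -0.07 for 130 min and -0.23 for 170 min against DMSO, with 0 of 87 called in each (0% of all genes in each). At an unadjusted p below 0.05 there were 44 genes for 90 min (9.69% of all genes), 2 for 130 min (4.7%) and 30 for 170 min (12.4%). These counts depended on single libraries. Without DMSO at 24 h, replicate 1, the 44 became 11 with a median of -0.19, the 30 became 5 with a median of -0.12, and the median of 130 min turned to 0.05. The 44 became 26 without 90 min at 24 h, replicate 3, and 51 without DMSO at 24 h, replicate 2. The 30 became 52 without 170 min at 24 h, replicate 1, 15 without its replicate 2 and 12 without its replicate 3. For 130 min, leaving out its replicate 3 gave 12 genes and a median of -0.17, and leaving out its replicate 1 a median of 0.01. Besides Ndufs4, the smallest p-values for 90 min were those of Ndufa9 (-0.42 ± 0.12) and Cox7a2 (-0.37 ± 0.10), each with an edgeR adjusted p of 0.458. Ndufa9, a subunit near the ubiquinone site, measured 164, 128 and 132 CPM in DMSO and 98.4, 102 and 111 CPM at 90 min, without overlap. For 170 min the smallest were Atp5h (-0.49 ± 0.15), Ndufa1 (-0.44 ± 0.15) and Atp5j (-0.39 ± 0.13), all with an adjusted p of 0.312; 57.3% of the 3′ words of Atp5h occur in other genes. For 130 min they were Atp5l (0.95 ± 0.34), Ndufs5 (1.11 ± 0.49) and Ndufaf8 (0.28 ± 0.13), all with an adjusted p of 0.965.

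At 48 h the 3 periods lay nearer to DMSO. Medians were -0.08 for 90 min, 0.02 for 130 min and -0.04 for 170 min, with 0 of 87 genes called (0% of all genes in each) and 0 at an unadjusted p below 0.05 in each of them (1.53%, 2.47% and 3.15% of all genes). Without DMSO at 48 h, replicate 2, the medians were -0.02, 0.09 and 0.02. Without DMSO at 48 h, replicate 1, they were -0.12, -0.03 and -0.09, with 2, 2 and 4 genes at an unadjusted p below 0.05. So the sign for 130 and 170 min changed with the DMSO library left out. The smallest p-values belonged to Atp5l (0.56 ± 0.30), Sdha (-0.29 ± 0.16) and Ndufs3 (-0.29 ± 0.17) for 90 min, to Ndufs3 (-0.33 ± 0.17), Cox4i1, the main form of its complex IV subunit (-0.22 ± 0.14), and Ndufa3 (0.18 ± 0.12) for 130 min, and to Cox4i1 (-0.24 ± 0.14), Sdha (-0.28 ± 0.16) and Ndufs3 (-0.29 ± 0.17) for 170 min. Their edgeR adjusted p-values were 0.999 or 1.

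At 72 h the medians were -0.07 for 90 min, -0.09 for 130 min and -0.12 for 170 min, with 0 of 87 called (0% of all genes in each). At an unadjusted p below 0.05 there were 2 genes for 90 min (0.995% of all genes), 7 for 130 min (10.3%) and 3 for 170 min (2.17%). Without DMSO at 72 h, replicate 1, these became 0, 3 and 1, with medians of -0.03, -0.02 and -0.07. Without 130 min at 72 h, replicate 2, the 7 became 3 with a median of -0.02 (45 of 87 lower in place of 73). The 3 became 1 without 170 min at 72 h, replicate 1 or 2, and 9 without its replicate 3, and the 2 became 1 without 90 min at 72 h, replicate 2, and 3 without its replicate 3. For 90 min the smallest were Ndufaf8 (-0.28 ± 0.12), Atp5l (0.68 ± 0.30) and Ndufs3 (-0.35 ± 0.18), with an edgeR adjusted p of 1. For 130 min they were Ndufaf8 (-0.37 ± 0.12, adjusted p 0.315), Cox7a1 as given above and Atp5l (0.78 ± 0.31, 0.39). For 170 min they were Ndufb7 (-0.35 ± 0.12), Uqcrb (-0.30 ± 0.13) and Uqcrc2, a core protein of complex III (-0.30 ± 0.14), with an adjusted p of 1.

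Durations were compared over all treatments. At 48 h, 78 of 87 genes were lower than at 24 h, with a median of -0.10. None passed in edgeR (0% of all genes), and DESeq2 called 1, Cox7a2. At an unadjusted p below 0.05 there were 33 genes, all lower, against 9.63% of all genes. Without DMSO at 24 h, replicate 1, there were 17. Cox7a2, the liver-type form of its subunit, ran from 249 to 388 CPM at 24 h with a median of 308 and from 238 to 281 CPM at 48 h with a median of 260. The 2 sets overlapped in part. Its log2 change was -0.21 ± 0.05 with an adjusted p of 0.324 in edgeR and 0.0253 in DESeq2. Ndufs4 (-0.21 ± 0.06) and Ndufb5 (-0.26 ± 0.07) followed, with an edgeR adjusted p of 0.324 each.

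From 24 to 72 h the median was -0.06 with 72 of 87 lower, and 0 passed, against 0.157% of all genes (18 genes). At an unadjusted p below 0.05 there were 9 (8 lower), against 14.8% of all genes. The smallest p-values belonged to Atp5j2, subunit f of the ATP synthase (-0.19 ± 0.06, edgeR adjusted p 0.164), Ndufv3 (-0.19 ± 0.07, 0.211) and the hinge protein gene Uqcrh (-0.18 ± 0.07, 0.259). From 48 to 72 h the sign turned: 72 of 87 were higher with a median of 0.05, 0 passed (0% of all genes) and 8 had an unadjusted p below 0.05, against 12.6% of all genes. Atp5md (0.24 ± 0.09, adjusted p 0.305), Cox8a (0.20 ± 0.09, 0.359) and Ndufv1, which binds NADH (0.20 ± 0.09, 0.359), had the smallest. The treatment by duration interaction called 0 of 87 (0% of all genes), with 3 at an unadjusted p below 0.05 against 2.37% of all genes.

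The genes were then set against the library total. Within groups, the level of each gene was fitted on log2 of the total, so that the slope is the log2 change of CPM for each doubling of the total. Of the 87 genes, 58 passed an adjusted p of 0.05 as lower with a higher total and 0 as higher, in edgeR. Among all genes 13.2% passed as lower and 2.67% as higher. The median slope was -0.28 for the 87 genes and 0.08 for all genes. The passing genes were 26 of 37 in complex I, 3 of 4 in complex II, 5 of 8 in complex III, 9 of 13 in complex IV and 14 of 17 in the ATP synthase. Of the assembly factors 1 of 8 passed, Ndufaf4, and their median slope was 0.12. Their median level was lower, 90.8 CPM against 180 to 370 CPM in the 5 complexes, and Ndufaf4 had the highest level among them. Subunit genes of similar level did not pass either: Ndufb2 (73.3 CPM, slope 0.11), Ndufs3 (76.5, -0.0034), Ndufb4 (88.1, 0.02), Sdhd (90.4, -0.09) and Ndufab1 (91, 0.03). At slightly higher levels, Uqcr11 (109.6 CPM, slope -0.32) and Ndufs7 (114, -0.36) passed, while Uqcrc2 (109.8, -0.16) did not. The assembly factor gene Ndufaf8 (104.8 CPM) had a slope of -0.05. A difference between assembly factors and subunits of equal level was not tested.

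**Figure D3:**
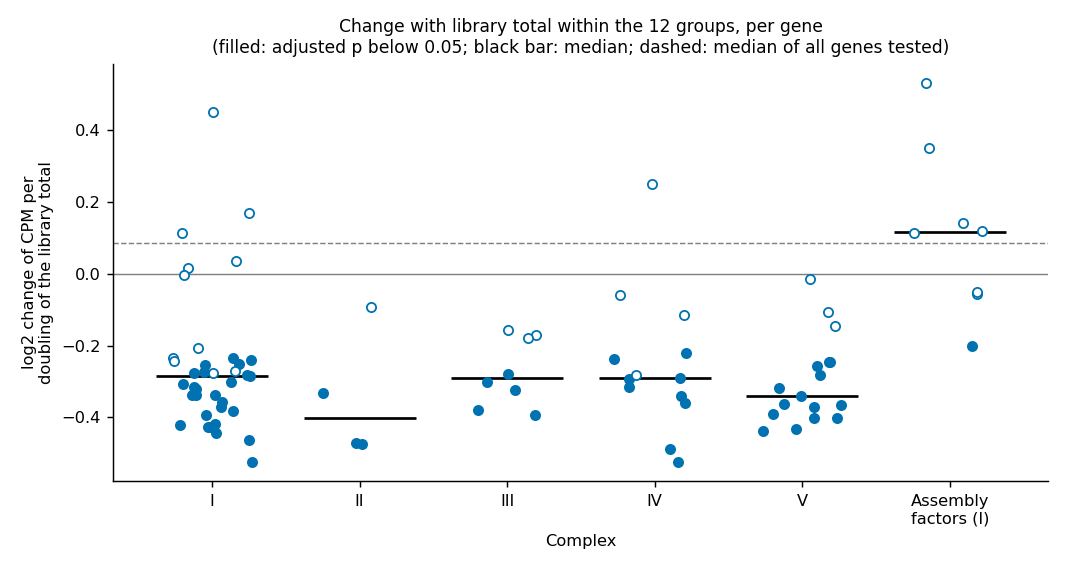
Slope of each tested gene on log2 library total (y axis, log2 change of CPM per doubling) by complex (x axis); filled points pass an adjusted p of 0.05, bars are medians and the dashed line is the median of all genes (0.08). Genes of the 5 complexes lie mostly below 0, while 5 of the 8 assembly factors lie above it. The assembly factors also have a lower median level (90.8 CPM) than the genes of each complex (180 to 370 CPM).

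Cox5a and Cox5b, nuclear subunits of complex IV, had 2 of the steepest slopes. Cox5b had a slope of -0.53 ± 0.08 (SE, edgeR adjusted p 3.4e-05), a level 0.695 times as high for each doubling of the total, and Cox5a -0.49 ± 0.07 (1.8e-05). In the 3 DMSO libraries at 24 h, with totals of 482741, 802900 and 807127, Cox5a measured 222, 178 and 172 CPM. In the 3 libraries of 130 min at 24 h, with totals of 951978, 1012262 and 656157, it measured 157, 149 and 221 CPM. In both groups the highest value was in the library with the lowest total.

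The other steep slopes lay in each complex. Ndufb9 (-0.52 ± 0.09), Ndufa5 (-0.44 ± 0.08) and Ndufa10 (-0.46 ± 0.08) of complex I, Sdha (-0.47 ± 0.09) of complex II, Uqcrq (-0.38 ± 0.07) of complex III and Atp5a1, the catalytic-head alpha subunit (-0.37 ± 0.06), had edgeR adjusted p-values from 0.000114 to 0.000574. Of the genes whose promoters are printed above, Atp5k had a slope of -0.43 ± 0.09, Cox6a1 -0.31 ± 0.07, Ndufa11 -0.31 ± 0.07 and Ndufaf5 0.53 ± 0.20. The first 3 passed, and Ndufaf5 did not (adjusted p 0.0669).

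The slope depended on the level of a gene. Of all genes with a mean of 200 CPM or more, 70.7% passed as lower with a higher total, and 32 of 40 chain genes did (80%). Of all genes at 50 to 200 CPM 14.6% passed as lower, and 26 of 40 chain genes did (65%). Levels were not matched within this range, so these 2 shares may compare genes of unlike level. The lowest level of a passing chain gene there was 109.6 CPM (Uqcr11), and those up to 104.8 CPM (Ndufaf8) did not pass. Of genes at 10 to 50 CPM 0% passed as lower, and 0 of 5 chain genes. Below 10 CPM 0% of all genes and 0 of 2 chain genes passed as lower. Slopes of low genes had wide errors, as in Atp5g2 (-0.11 ± 0.45, SE), so a gene that did not pass may still fall. Median slopes of all genes went from 0.46 below 10 CPM to -0.32 at 200 CPM and more, where the median of the chain genes was -0.29 and so less steep than that of all genes. At 50 to 200 CPM the medians were -0.31 for chain genes and -0.04 for all genes. Most genes of high level passed as lower with a higher total, whether chain genes or not. The differences between chain genes and all genes were not tested.

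The scaling factors moved with the total too. The TMM factor ran from 0.903 to 1.06 and its correlation with log2 total was 0.932 (Pearson, 36 libraries, description only). With scaling to the library total alone, 20 of 87 genes passed as lower, the median slope was -0.15 and that of all genes 0.21. The distance between the 2 medians was -0.37 with TMM and -0.36 with the total alone. The count of calls followed the scaling, while the distance between the medians stayed nearly the same.

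Summed over genes, the same pattern appeared. The share of counts on the 96 genes had a Pearson correlation of -0.684 and a Spearman correlation of -0.592 with log2 total over 36 libraries, and -0.708 (Pearson) after removing the group means. Without the 2 libraries farthest in total, DMSO at 24 h, replicate 1, and 130 min at 72 h, replicate 1, Pearson's value was -0.601. Complex I had -0.71, the ATP synthase -0.677, complex III -0.644, complex II -0.639 and complex IV -0.614. Assembly factors had 0.487. Since a share holds the total in its denominator, these values are descriptions.

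**Figure D4:**
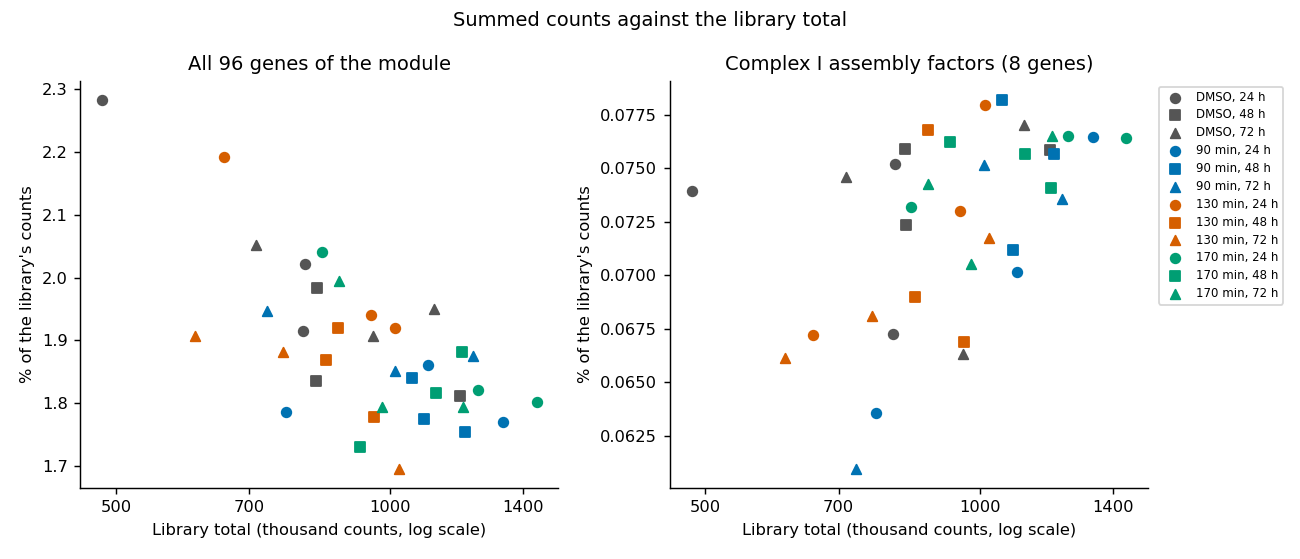
Percent of counts on all 96 genes (left) and on the 8 assembly factor genes (right) against library total on a log axis; colours are treatments and shapes durations. The left cloud falls from 2.28% at the lowest total, and the right cloud rises (Pearson -0.684 and 0.487).

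With log2 total as a covariate, the treatment differences shrank. The median for 90 min against DMSO went from -0.14 to -0.05, with 4 genes at an unadjusted p below 0.05 in place of 36. The median for 170 min went from -0.13 to -0.03, with 1 gene in place of 27, while 130 min stayed at -0.05. At 24 h alone, 90 min went from -0.29 to -0.10, 170 min from -0.23 to 0.00 and 130 min from -0.07 to 0.03. The difference between 48 and 24 h went from -0.10 to -0.08. No gene passed in any of them. Mean totals differed between treatments, as given above, so treatment and total cannot be fully told apart in this fit.

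**Figure D5:**
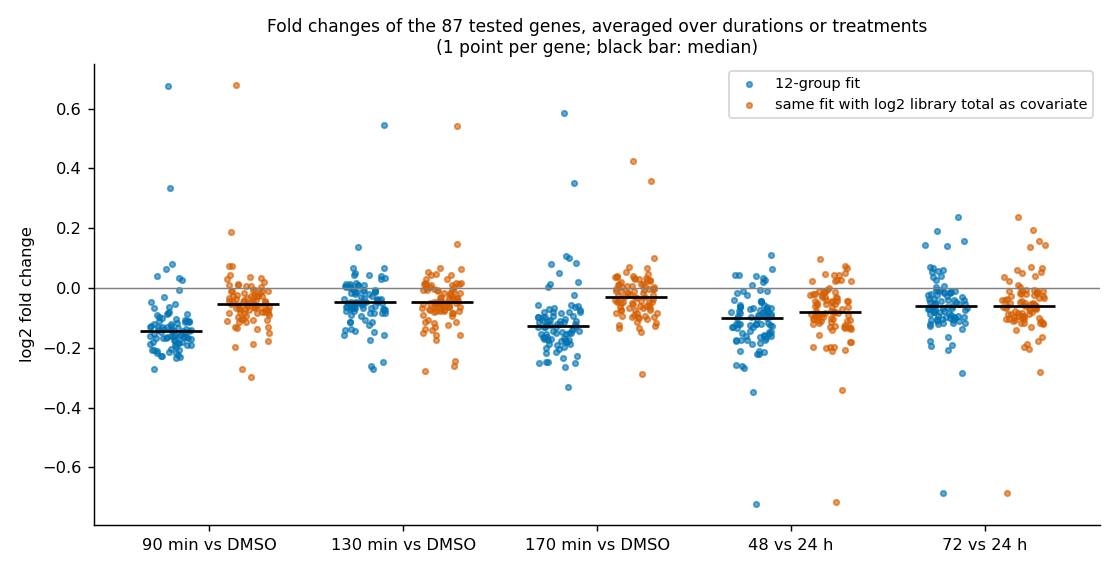
Log2 fold change of the 87 tested genes (y axis) in 5 comparisons (x axis), from the 12-group fit (blue) and from the same fit with log2 library total as a covariate (orange); bars are medians. The medians of 90 and 170 min move from -0.14 and -0.13 to -0.05 and -0.03.

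Other mitochondrial genes were read in the same fit. Among all genes 13.2% passed as lower with a higher total and 2.67% as higher, and 70.7% of those at 200 CPM or more passed as lower. The lists below were not matched for level. Of the transcripts encoded in mitochondrial DNA, 6 of 7 tested passed as lower with a higher total (median slope -0.54), and of the citric acid cycle 14 of 19 (-0.33). Other electron carriers had 4 of 9 (-0.22), mitochondrial import 9 of 23 (-0.22), mitochondrial ribosomal proteins 23 of 74 (-0.16) and regulators of mitochondrial biogenesis 4 of 18 (-0.07). Assembly factors outside the rule had 8 of 44 as lower and 1 as higher, with a median of -0.06. Cytosolic ribosomal proteins had 25 of 75 as lower and 5 as higher. After 90 min pulses none of these lists had a called gene (0% of all genes). Lower values than DMSO were found for 7 of 7 mitochondrial transcripts and 17 of 19 citric acid cycle genes, with medians of -0.16 and -0.13. Of all genes tested, 5145 of 11462 were lower, with a median of 0.02.

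Markers of epithelial cell types were set beside the shares. The 14 enterocyte markers summed to 1389 to 7405 CPM, and their sum had a Pearson correlation of 0.496 with the share of the 96 genes (0.413 within groups, 36 libraries). Their range was 1673 to 5610 CPM in DMSO, 2946 to 4474 at 90 min, 1389 to 7405 at 130 min and 2310 to 5067 at 170 min. The same correlation was 0.352 for the 8 cycling markers (0.388 within groups) and 0.285 for the 8 stem cell markers (0.37 within groups). It was 0.181 for the 7 Paneth markers (0.237 within groups) and 0.144 for the 7 enteroendocrine markers (0.194 within groups). The 7 goblet markers had -0.0895 (0.148 within groups) and the 5 tuft markers -0.368 (-0.185 within groups). Within groups, enterocyte, cycling and stem cell markers thus had similar values. With log2 total, the cycling markers had a Pearson correlation of -0.593, the same sign as that of the 96 genes, and ran from 1660 to 2198 CPM in DMSO, 1557 to 1844 at 90 min, 1526 to 1825 at 130 min and 1504 to 1849 at 170 min. The other 6 lists of epithelial cell types lay between -0.138 (stem cells) and 0.195 (tuft) with log2 total. The 6 general epithelial markers had -0.344 with log2 total. With the share of the 96 genes they had 0.0136 (-0.199 within groups). The part of cell composition in the values above was not tested.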

How the data were processed

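RNA was measured in 36 libraries of mouse duodenal organoids by the Sort-seq method, which tags molecules with unique identifiers (UMIs). The submitters' processing notes name STAR 2.7.8a and UMI-tools 1.1.1. A genome build or annotation is not given in the sources used here. The deposited table holds whole-number counts by gene symbol, which the authors left unscaled as far as the values show. All columns matched a sample's labels, with 0 left over. Totals ran from 482741 to 1447330, and counting error limits genes with few molecules.

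Genes were kept with filterByExpr in edgeR 4.0.16 (R 4.3.3), which left 11462 of 34197, and scaled by TMM. A model of the 12 group means, with 24 residual degrees of freedom, was tested with robust quasi-likelihood F tests, two-sided except for the interaction. P-values were adjusted by Benjamini-Hochberg over all 11462 genes with a threshold of 0.05. There were 19 comparisons: 9 averaged with equal weight, 9 of a period with DMSO at 1 duration, and the interaction. The slope on log2 library total was the coefficient of a covariate added to the same model (23 residual degrees of freedom); its test, the fits without the 2 lowest totals and the fits with single pairs as blocks were added after the data were seen. CPM values are per 1000000 TMM-scaled counts, and shares are percent of raw totals. The scripts were also run on simulated counts with known changes. In that simulation the slope test recovered few of the genes that had been tied to the library total.

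Same-numbered samples deviated together (all 3 correlations over 0.1) in 5 of 18 pairs of groups of the same duration, among them 130 and 170 min at every duration; this hint comes from the data and not from the labels. Named genes are, per averaged comparison, those past the threshold or the 3 smallest p-values, at most 3 for single durations, the highest and lowest of each complex, all paralogues, all Sdh genes and all untested genes. The genes, lists and markers were chosen with earlier results of these data known. Alternatives were 3 other scalings, DESeq2 1.42.0, no filter, counts thinned to 482741 per library, the replicate number as a block, and leaving out replicates, libraries or the 24 h groups. Promoter windows came from RefSeq (GRCm38.p6) and 3′ words of 50 bases, within the last 400, from GENCODE vM21 transcripts; their build is not known to be that of the counts.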

Additional observations from a re-analysis of the deposited data

Results flagged for a closer look

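In each treatment's 9 libraries, the highest and lowest value was compared with its neighbour by Dixon's test at 95% (critical value 0.493) for the summed shares and for the 21 genes named in averaged comparisons. In 18 of 112 sets a library stood apart. The rate of about 1 in 20 that chance gives at 95% cannot serve as a benchmark for this number. The 21 genes were named for small p-values in the same libraries, and each set mixes the durations. The sets are also not independent, since the same few libraries recur and the share of all the genes holds those of the complexes.

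The shallowest library (DMSO at 24 h, replicate 1) stood apart as high for complex III (0.249% of counts) and complex V (0.559%), and for Ndufa4 (828 CPM), Ndufb5 (347 CPM), Ndufs4 (289 CPM), Uqcrb (284 CPM) and Uqcrh (375 CPM). The library of 130 min at 24 h, replicate 3, stood apart as high for all 96 genes (2.19%), complex I (0.773%) and complex V (0.539%), and for Ndufa11 (315 CPM), Sdhc (314 CPM) and Uqcrfs1 (421 CPM). The library of 90 min at 72 h, replicate 1, was high for Ndufa1 (247 CPM), Ndufv1 (272 CPM) and Uqcrb (198 CPM). In 90 min at 24 h, replicate 1, Atp5l was low (14.4 CPM), and in 170 min at 24 h, replicate 1, Ndufb5 was high (362 CPM). All of the libraries with high values had totals below the median of 958749, and the part of the total in these values was not tested.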

How the results depend on the processing

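The count of 0 called genes held in every alternative of 18 of the 19 comparisons; from 48 against 24 h DESeq2 called 1 (Cox7a2, adjusted p 0.0253), and its adjusted p was missing for 32 of the 87 genes there. The 58 genes passing as lower with a higher library total became 20 with scaling by the total only and 28 without a filter on low counts. They became 34 with thinned counts and 7 without the 24 h groups. Leaving out a replicate number gave 5 to 24, and leaving out single libraries 46 to 59. The median slope was negative in all of these. With the replicate number as a block, 0 genes passed in all 19 comparisons and 53 passed as lower with a higher total. Blocks within durations gave 43. Pairs of 130 and 170 min, and of DMSO and 90 min, as blocks gave 0. Leaving out replicate 1 turned the median of 130 min against DMSO to 0.02. Single libraries moved the number of genes at an unadjusted p below 0.05 from 3 to between 1 (without DMSO at 48 h, replicate 3) and 9 (without 130 min at 24 h, replicate 3) for 130 min, from 9 to between 3 (without 130 min at 72 h, replicate 2) and 15 (without DMSO at 24 h, replicate 2) for 72 against 24 h, and from 8 to between 1 (without 170 min at 48 h, replicate 3) and 11 for 72 against 48 h. Low counts limit the 7 genes below 50 CPM most.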

Other observations

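Rows with "-ps" in the symbol were outside the rule, and 2 of 11 were tested. Ndufb1-ps held 13091 counts over the 36 libraries, with 222 to 516 in each, a level like that of the complex I subunits. Ndufs5-ps held 968 counts, with 0 to 49 per library. The other 9 had at most 47 counts in all, as in Atp5c1-ps. Ndufs5 itself, an accessory subunit of complex I, averaged 14.8 CPM. Of its 3′ words, 42.6% also occur in 1 other gene, BC002163, so its level may be split with that gene.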
